A study of Mus musculus with 1920 samples.

Results

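The retinoid genes described here are 10 of the 55471 genes in a single-cell count table of Lgr5-high intestinal stem cells (ISCs) from 3 young and 4 aged mice. They were chosen by name. The set holds the retinaldehyde dehydrogenases Aldh1a1, Aldh1a2 and Aldh1a3, the close relative Aldh1a7, the retinol dehydrogenase Rdh1, the retinal reductase Dhrs3, the carriers Rbp2, Rbp7 and Crabp2 and the receptor Rara. The choice was made with the levels of these genes in young and aged ISCs already known, and Aldh1a1 and Aldh1a7 also stand in the aging signature that the study derived from the same cells. The levels of the 10 genes by age are therefore a description, given without a p value. Of the 10 genes, 9 had a read in a kept cell, 8 had enough reads to be fitted between the mice, and Aldh1a2 and Crabp2 had not.

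All mice carried the genotype labeled B6.129P2-Lgr5tm1(cre/ERT2)Cle/J, a knock-in at the Lgr5 locus that drives green fluorescent protein and an inducible Cre and is known to be active in only part of the crypts. No agent is labeled for any mouse, and the labels give the ages only as young and old, here called aged. Cells from small intestinal crypts were sorted for high fluorescence and sequenced individually with a Smart-seq2 method. Of 1920 cells, the 1836 with at least 1000 detected genes were kept, 906 from young and 930 from aged mice. The kept cells held a median of 305492 reads, and 49447464 to 134408884 reads per mouse. Reads carry no molecular identifiers and do not stand for independent molecules. The cell just below the limit had 981 detected genes and 1 Dhrs3 read, and the cell just above it had 1048 detected genes and no read of any of the 10 genes.

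Lgr5, the receptor that defines these cells, had a read in 96.9% of the kept cells. Each cell was assigned to whichever of 9 marker lists had the highest mean log2(CPM + 1) in it, where CPM is counts scaled to 1000000 reads of the cell or sum. ISC markers led in 1539 cells (83.8%), Paneth markers in 144, enterocyte markers in 65, goblet markers in 60, tuft markers in 18 and enteroendocrine markers in 6, whereas immune and stromal markers led in 0. Endothelial markers led in 4 cells, all of aged mouse 3, which also had the highest summed Aldh1a7, Rbp7 and Dhrs3 levels given below. Nearly all reads of these genes in that mouse lay in cells led by ISC, enterocyte, Paneth, goblet or tuft markers. Its ISC-led cells held 69.9%, 41.5% and 86.6% of them, and its goblet-led cells 44.0% of those of Rbp7. The part of the 4 cells was not tested. These classes are ranges along the marker levels rather than cell types, and 60 cells (3.27%) lay within 0.5 of the next list. None of the 10 genes is in a marker list. The summed level of the 12 enterocyte markers was 743 to 934 CPM in young and 759 to 2203 CPM in aged mice, and enterocyte-led cells numbered 4, 1 and 6 in young mice 1 to 3 and 3, 7, 11 and 33 in aged mice 1 to 4. Markers of other cells also differed in mean level, at 879 CPM in young and 1582 CPM in aged mice for goblet and 63.6 and 303 CPM for enteroendocrine markers. Both overlapped between the ages. Immune markers were at 6.27 and 18.5 CPM and higher in every aged than in any young mouse, though only 4 of the 7 immune genes had a higher aged mean. The summed Paneth markers overlapped, at 6882 to 23162 CPM in young and 10472 to 25350 CPM in aged mice. So did the ISC markers, at 19823 to 24557 and 15940 to 26100 CPM, of which 2 of 20 had a higher aged mean. Paneth-led cells made up 2.13% to 6.88% of the cells in young and 7.41% to 16.1% in aged mice. The part of these cells in the values over all cells was not tested, and values in ISC-led cells are given beside them.

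Retinoids are made from vitamin A taken up by the small intestine. Retinol dehydrogenases oxidize retinol to retinal, reductases return it, and retinaldehyde dehydrogenases of the Aldh1a family turn retinal into retinoic acid, which acts through nuclear receptors such as Rara. Absorptive enterocytes are known for handling most of the dietary vitamin A, with Rbp2 as their intracellular retinol carrier.

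Aldh1a1 and Aldh1a7 are near copies, so their sequences bear on how far reads can be assigned to one or the other. In the GRCm38 genome Aldh1a1 (ENSMUSG00000053279) lies on the plus strand at chr19:20492715-20643465 and Aldh1a7 (ENSMUSG00000024747) on the minus strand at chr19:20692953-20727562. Both coding sequences have 1503 bases, of which 120 differ (92.0% identical). The first 180 coding bases, which span 3 exons in each gene (chr19:20602012-20617888 and chr19:20722410-20727512), show the kind of difference, with capitals at the 10 bases that differ.
Aldh1a1: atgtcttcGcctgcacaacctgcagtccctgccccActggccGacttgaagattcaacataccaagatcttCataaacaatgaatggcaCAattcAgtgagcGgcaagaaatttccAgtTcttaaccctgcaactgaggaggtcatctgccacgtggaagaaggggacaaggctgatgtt
Aldh1a7: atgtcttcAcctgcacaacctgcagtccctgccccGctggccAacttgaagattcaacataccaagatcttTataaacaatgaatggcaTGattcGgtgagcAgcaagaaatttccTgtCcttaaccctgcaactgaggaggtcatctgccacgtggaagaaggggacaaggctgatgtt
Over the compared transcripts, 6.54% of all stretches of 50 bases of Aldh1a1 occurred unchanged in Aldh1a7 and 7.49% of those of Aldh1a7 in Aldh1a1. A small part of the reads can therefore be shared by both genes, and how the counting treated such reads is not given in the sources used here. Aldh1a1 was only 69.6% identical to Aldh1a2 and 70.1% to Aldh1a3 over the coding bases and shared no stretch of 50 bases with either. Rdh1 (ENSMUSG00000089789, chr10:127759721-127768297, plus strand) has near copies among other retinol dehydrogenases, with 93.1% identity to Rdh16, 92.1% to Rdh9, 91.8% to Rdh19 and 87.9% to Rdh7, so its counts carry the same limit.

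The likeness of both genes reached upstream of their starts. RefSeq promoter sequences on GRCm38.p6 were found for 8 of the 10 genes, with 14 promoters in all, and Aldh1a1 has an upstream and a downstream start. The last 110 bases before the downstream Aldh1a1 start (chr19:20601858-20601967, plus strand) and before the Aldh1a7 start (chr19:20727557-20727666, minus strand) were identical at 104 bases (94.5%), with the 6 differing bases in capitals.
Aldh1a1, downstream start: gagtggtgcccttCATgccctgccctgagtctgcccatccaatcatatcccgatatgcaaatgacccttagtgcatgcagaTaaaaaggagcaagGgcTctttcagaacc
Aldh1a7: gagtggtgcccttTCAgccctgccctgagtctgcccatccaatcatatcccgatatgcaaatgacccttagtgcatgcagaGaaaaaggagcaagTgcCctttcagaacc
In the 140 bases further upstream only 17.9% matched when set side by side without gaps, and the upstream Aldh1a1 start matched Aldh1a7 at 29.1% of the last 110 bases. Both promoters hold CCAAT at position -72 and ATGCAAAT at position -56 from the start, letters looked for after the sequences had been seen. On either strand of the 250 bases before the start, CCAAT occurred in 33.8% of 32851 promoters and in 8 of the 14 promoters of these genes. ATGCAAAT occurred in 1.6% and in 3 of 14. Windows of neighboring starts overlap at Rara and at Dhrs3 and count the same CCAAT site again, and Aldh1a1 and Aldh1a7 are near copies. These counts are therefore not of independent sites. CTTTGAT, the letters bound by the Wnt effectors of the Tcf family, occurred in 3.21% of all promoters and in none of the 14. AGGTCA, the hexamer bound by nuclear receptors, occurred in 14% of all promoters and of these genes in that of Rbp2 alone, on the minus strand at position -58. The last 110 bases before the Rbp2 start (chr9:98490427-98490536, plus strand) are shown with these letters in capitals.
Rbp2: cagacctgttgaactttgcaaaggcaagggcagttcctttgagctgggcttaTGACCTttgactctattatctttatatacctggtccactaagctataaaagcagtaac
A direct repeat of AGGTCA with 1, 2 or 5 bases between occurred in none of the 14 promoters. These exact repeats occurred in only 0.0335%, 0.00913% and 0.00913% of all promoters, so their absence from 14 says little. Imperfect repeats were not searched for. All matches given here describe letters in a window and show no binding.

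Per kilobase of exon, the members spanned a wide range of levels in the 7 mice. Rbp2 had 34.4 ± 30.2 CPM per kilobase (SD, n = 7 mice) and Dhrs3 30.2 ± 13.5, followed by Rbp7 at 9.87 ± 13.5, Rdh1 at 7.02 ± 2.84, Rara at 5.26 ± 1.39, Aldh1a1 at 3.96 ± 3.06 and Aldh1a7 at 3.63 ± 3.52. Aldh1a3 had 0.07 ± 0.05 and Crabp2 0.03 ± 0.03 CPM per kilobase, and Aldh1a2 was at 0. Neighbors in this order differed by less than the larger of their SDs, except for Dhrs3 and Rbp7 and for Aldh1a7 and Aldh1a3. Mean levels hid how unevenly the reads were spread over cells. The 10 cells with the most reads held 45.7% of all Rbp7 reads, 40.8% of Rbp2, 30.3% of Aldh1a1 and 20.4% of Aldh1a7 reads, but 8.38% of Rara reads. A single cell held 60.5% of the Rbp2 reads of young mouse 2. For Rbp7 a single cell held 55.4% of the reads of young mouse 3 and another 36.8% of those of aged mouse 3.

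The main readout of age was the count of each gene summed over the kept cells of a mouse, in CPM. Aldh1a1, which oxidizes retinal to retinoic acid, was at 9.46, 6.55 and 7.35 CPM in young mice 1 to 3 and at 12.7, 34.1, 20.7 and 45.8 CPM in aged mice 1 to 4. All 4 aged mice stood above all 3 young mice, and the means were 7.79 ± 1.51 and 28.3 ± 14.6 CPM (SD, n = 3 and 4). The fitted difference was 1.92 ± 0.42 (log2, SE).

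Aldh1a7 was at 1.98, 2.45 and 1.58 CPM in young and at 4.27, 6.62, 19.2 and 16.3 CPM in aged mice. The groups again did not overlap, although aged mice 1 and 2 were much nearer to the young mice than aged mice 3 and 4. The fitted difference was 2.61 ± 0.55 (log2, SE). Apart from the fit, the ratio of the mean CPM of the groups was 5.79.

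Rbp2 (chr9:98486115-98509781, plus strand) was at 15.7, 8.91 and 15.2 CPM in young and at 11.3, 86.8, 39.1 and 54.9 CPM in aged mice. Aged mouse 1 lay within the young range and the other aged mice above it. The fitted difference was 1.90 ± 0.57 (log2, SE).

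Rbp7 (chr4:149449687-149454978, minus strand), an intracellular retinol-binding protein of the same family, was at 2.00, 1.75 and 2.57 CPM in young and at 1.00, 9.54, 28.1 and 4.64 CPM in aged mice. Aged mouse 1 was the lowest of all 7 and the other aged mice were above the young ones. The fitted difference was 2.42 ± 0.89 (log2, SE), and 1.32 without aged mouse 3.

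Values of the remaining genes overlapped between the ages. Rdh1, which makes retinal from retinol, was at 25.6, 28.0 and 25.9 CPM in young and at 50.1, 26.7, 12.6 and 24.2 CPM in aged mice. Its aged values lay on both sides of a narrow young range, with a fitted difference of 0.15 ± 0.36 (log2, SE), or -0.26 without aged mouse 1. A single cell held 33.4% of the Rdh1 reads of young mouse 1, so the narrowness of the young range rests partly on that cell.

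Dhrs3 (chr4:144892827-144928209, plus strand), which returns retinal to retinol and is itself known to be induced by retinoic acid, was at 123, 63.3 and 61.0 CPM in young and at 75.3, 72.2, 163 and 61.2 CPM in aged mice. Young mouse 1 and aged mouse 3 stood above the rest, and both were sequenced in the same lane, whose part in this was not tested. Among cells with a read, their median levels were 64.8 and 60.2 CPM, near the 50.8 to 61.4 CPM of the other mice. A single cell held 15.5% and 12.0% of their Dhrs3 reads, against 20.9% in aged mouse 1 and 3.78% to 4.51% in the remaining mice. The fitted difference was 0.22 ± 0.38 (log2, SE) and ranged from -0.20 without aged mouse 3 to 0.66 without young mouse 1.

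Rara (chr11:98927818-98974942, plus strand) was at 24.7, 23.5 and 31.1 CPM in young and at 24.2, 12.8, 17.5 and 27.0 CPM in aged mice. The groups overlapped, and the fitted difference was -0.32 ± 0.27 (log2, SE).

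The last retinaldehyde dehydrogenases were close to absent. Aldh1a3 (chr7:66390890-66427517, minus strand) was at 0.05 to 0.60 CPM in aged and 0.21 to 0.60 CPM in young mice, and a single cell held 57.0% to 84.6% of its reads in 5 of the 7 mice. Aldh1a2 (chr9:71215789-71296243, plus strand) had a read in 0 of 1836 cells, which allows a share of up to 0.163% of cells with a read. Crabp2 (chr3:87948666-87953376, plus strand), the carrier that delivers retinoic acid to its receptors, had 29 reads in 8 cells. Among the Aldh1a genes, Aldh1a1 and Aldh1a7 therefore held nearly all reads in both ages.

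**Figure D1:**
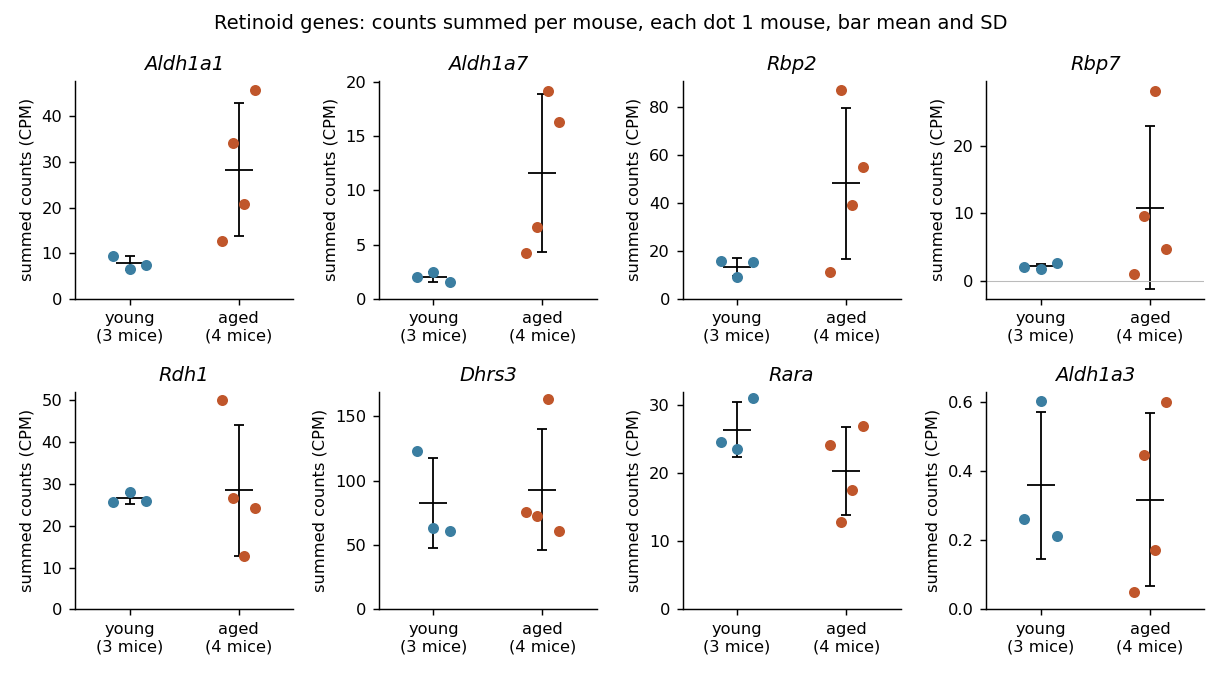
Counts summed per mouse (CPM, vertical axes from 0 except where an SD bar reaches below it) for 8 retinoid genes in 3 young and 4 aged mice. Each dot is 1 mouse and the bar gives the mean and SD. For Aldh1a1 the aged mice sit at 12.7 to 45.8 CPM above the young at 6.55 to 9.46 CPM, and for Aldh1a7 at 4.27 to 19.2 above 1.58 to 2.45 CPM, whereas the groups overlap in the other 6 panels.

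Of the 8 fitted members, Aldh1a1 and Aldh1a7 had every aged mouse above every young mouse, and none had every aged mouse below. Over all 20957 fitted genes, 1.82% lay fully above and 4.09% fully below in this way, and since the members were chosen on this contrast nothing is read from their count. The median fitted difference was 1.06 over the 8 members and 0.01 over all genes (log2).

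More aged than young cells had reads of Aldh1a1 and Aldh1a7. Aldh1a1 had a read in 21.2%, 21.6% and 16.5% of the cells of young mice 1 to 3 and in 34.4%, 48.9%, 45.0% and 48.9% of the cells of aged mice 1 to 4. Aldh1a7 had a read in 11.2%, 7.3% and 5.6% of young and in 11.6%, 26.9%, 45.0% and 39.3% of aged cells. The highest young share, 11.2%, lay just under the lowest aged share, 11.6%. Among cells with a read, the median level of Aldh1a1 was 16.9 to 19.3 CPM in young and 20.3 to 23.7 CPM in aged mice, and that of Aldh1a7 19.0 to 29.1 and 17.6 to 29.3 CPM. With each cell thinned to 100000 reads, which left 1732 cells, the mean share was 16.5% in young and 36.8% in aged mice for Aldh1a1 and 7.08% and 27.0% for Aldh1a7. The groups did not overlap for either gene before or after thinning. Fewer cells with the RNA and less RNA per cell cannot be fully told apart where a cell's copies fall below what was sampled.

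**Figure D2:**
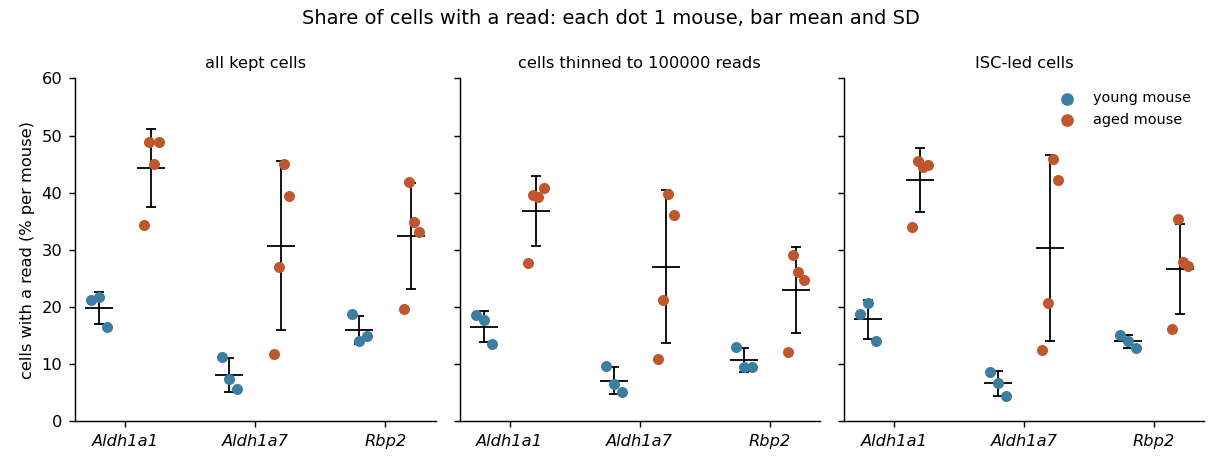
Share of cells with a read (% of the cells of a mouse) of Aldh1a1, Aldh1a7 and Rbp2 in all kept cells, in cells thinned to 100000 reads and in ISC-led cells. Each dot is 1 mouse, young mice left and aged mice right in each pair, with the mean and SD. Aldh1a1 means are 19.8% in young and 44.3% in aged mice over all kept cells, and in each panel all aged mice lie above all young mice for Aldh1a1 and Aldh1a7.

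Because enterocyte-led cells were more frequent in some aged mice, the levels were taken again in the ISC-led cells alone. Aldh1a1 was then at 5.41, 5.11 and 3.20 CPM in young and at 12.9, 9.83, 10.8 and 13.7 CPM in aged mice. The aged mice became alike, and still all lay above the young mice, with means of 4.57 ± 1.20 and 11.8 ± 1.79 CPM (SD) and a fitted difference of 1.43 ± 0.28 (log2, SE). Enterocyte-led cells held 41.0%, 11.9% and 51.0% of all Aldh1a1 reads in young mice 1 to 3 and 2.45%, 40.8%, 51.5% and 65.5% in aged mice 1 to 4.

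Aldh1a7 in ISC-led cells was at 1.96, 2.39 and 1.36 CPM in young and at 4.28, 6.24, 17.3 and 17.7 CPM in aged mice. These values were close to those over all cells, and its fitted difference was 2.66 ± 0.56 (log2, SE). Enterocyte-led cells held at most 12.7% of its reads in a mouse.

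Rbp2 in ISC-led cells was at 2.74, 1.61 and 1.81 CPM in young and at 1.73, 5.46, 10.6 and 5.99 CPM in aged mice, with aged mouse 1 again among the young. Enterocyte-led cells held 34.9% to 82.4% of all Rbp2 reads of a mouse. Rbp7 differed by 2.14 ± 0.77, Rdh1 by 0.24 ± 0.32, Dhrs3 by 0.25 and Rara by -0.30 in these cells (log2, aged minus young, SE where given).

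The cells were sequenced in 5 lanes, of which 3 held both ages. In the lane with aged mouse 1 and part of young mouse 2, Aldh1a1 was at 12.7 and 5.49 CPM and Aldh1a7 at 4.27 and 2.26 CPM. With aged mouse 3 and young mouse 1 the values were 20.7 and 9.46 CPM for Aldh1a1 and 19.2 and 1.98 CPM for Aldh1a7. With aged mouse 2 and the rest of young mouse 2 they were 34.1 and 7.44 CPM for Aldh1a1 and 6.62 and 2.60 CPM for Aldh1a7. Both genes were higher in the aged mouse in all 3 lanes. This largely follows from the groups not overlapping and is no separate support. Young mouse 2 also supplied the young cells of both the first and the last of these lanes. Rbp2 was at 11.3 CPM against 13.4 in the first of these lanes and higher in the aged mouse in the other two. Aged mouse 4 and young mouse 3 were sequenced alone, where lane and age cannot be told apart.

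Aldh1a1 and Aldh1a7 were partly found in the same cells. Of 1836 cells, 214 had reads of both, 382 of Aldh1a1 alone, 153 of Aldh1a7 alone and 1087 of neither. The share with both, 11.7%, stood against 6.49% for the product of the shares of each gene. That product was taken over the pooled cells of mice whose own products ran from 0.92% to 20.2%. Pooling such unlike mice by itself adds to the excess, and the products by age are pooled in the same way. In young mice 31 of 906 cells (3.42%) had both and in aged mice 183 of 930 (19.7%), against products of 1.42% and 14.6%. In ISC-led cells the shares were 1.82% against a product of 1.06% in young and 17.4% against 13.5% in aged mice. By mouse the excess was small or missing in some, with 22.2% against 20.4% in aged mouse 3 and 0.58% against 0.61% in young mouse 3. Depth differs between cells, part of the reads can belong to either copy, and cells of a mouse share a library, so these shares are given without a test.

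Across the cells of a mouse, the genes most like Aldh1a1 included the enterocyte markers Sis and Apoa1 and the member Rbp2. By the mean over 7 mice of the within-mouse Pearson correlation of log2(CPM + 1), over 12557 genes detected in at least 20% of cells, the first 10 included Clec2h (0.40), Enpep (0.40), Sis (0.39), Rbp2 (0.39), Gda (0.38), Lgals3 (0.38), Gm10680 (0.38), Krt20 (0.38) and Apoa1 (0.37). The median over all genes was 0.05. Enpep and the sucrase-isomaltase Sis are enzymes of the brush border, and Krt20 is a keratin of mature enterocytes. For Aldh1a7 the first was Aldh1a1 (0.25), followed by Tubal3 (0.23), Slc51a (0.23), Tmem50b (0.22), Clec2h (0.21), Tm6sf2 (0.20), Slc7a9 (0.20), Rdh7 (0.20), Krt20 (0.20) and Gm10680 (0.20). Within ISC-led cells the values changed. The correlation of Aldh1a1 with Rbp2 was 0.03 there and that with Aldh1a7 0.12, and the first genes were Gapdh (0.20) for Aldh1a1 and Mybl2 (0.17) and Rrm2 (0.17), both of proliferating cells, for Aldh1a7. The points are cells of the same libraries that differ in depth, and correlations of this size in sparse counts are a description.

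Levels in the classes of cells were not used to choose these genes, but their levels by age were known. Enterocyte-led cells were more frequent in some aged mice and held up to 82.4% of the Rbp2 reads of a mouse. A choice by age can therefore favor genes that are high in these cells, and the class test is not independent of it. Enterocyte-led cells were compared with ISC-led cells within the 4 mice with at least 5 of each, young mouse 3 and aged mice 2, 3 and 4, with 57 and 889 cells and a median of 167987 and 333135 reads per cell. Of the 8 members fitted, 3 were higher in enterocyte-led cells and 0 lower in edgeR (quasi-likelihood test, p values adjusted by Benjamini-Hochberg over all genes, threshold 0.05). The background was 9.33% of 19326 genes higher and 9.39% lower, and the median of all genes was -0.28 (log2). The classes were set by marker reads of the same cells, so genes that vary together with the markers differ partly through the split.

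Aldh1a1 was at 310, 451, 306 and 661 CPM in the enterocyte-led cells of young mouse 3 and aged mice 2, 3 and 4, and at 3.20, 9.83, 10.8 and 13.7 CPM in their ISC-led cells. The summed level was higher in the enterocyte-led cells of all 4 mice, and the difference was 5.99 ± 0.33 (log2, SE; adjusted p = 6.91e-11 in edgeR). Rbp2 was at 958, 1520, 745 and 998 CPM in the enterocyte-led cells and at 1.81 to 10.6 CPM in the ISC-led cells, a difference of 8.05 ± 0.47 (log2, SE; adjusted p = 1.17e-10 in edgeR). It had the largest difference of the members.

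Aldh1a7 was at 11.2, 18.2, 69.9 and 24.8 CPM in the enterocyte-led cells and at 1.36, 6.24, 17.3 and 17.7 CPM in the ISC-led cells of the same mice. It was higher in the enterocyte-led cells of all 4 mice, by 2.06 ± 0.36 (log2, SE; adjusted p = 0.000385 in edgeR). The near copies thus differed in size, with a ratio of means between the classes of 46.0 for Aldh1a1 and 2.91 for Aldh1a7, a contrast that was not itself tested.

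The other members did not pass the test. Rara differed by 0.72 ± 0.28, Rbp7 by 0.64 ± 0.58 and Dhrs3 by 0.31 ± 0.28 (log2, SE). Rara passed it in DESeq2 at 0.82, and without aged mouse 3 Rara and Dhrs3, at 0.66, passed it in edgeR. In CPM, Dhrs3 was higher in the enterocyte-led cells of only 2 of 4 mice. Rdh1 differed by -1.12 ± 0.65, with 74.3 CPM in the 6 enterocyte-led cells of young mouse 3 and 0 to 8.39 CPM in those of the aged mice, and without young mouse 3 the difference was -2.20 and passed (adjusted p = 0.0133 in edgeR). It also passed over all 4 mice without the filter on low counts, at -1.17 (adjusted p = 0.0239 in edgeR). Over its alternatives the adjusted p ran from 0.0133 to 0.589. Aldh1a3 had 141 reads in ISC-led and 0 in enterocyte-led cells and did not pass. Against a floor of 3 counts over the group it was 1.69-fold lower. That figure is no bound, since reads are not independent and a mean of only 3.05% of ISC-led cells (7 mice) had an Aldh1a3 read.

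**Figure D3:**
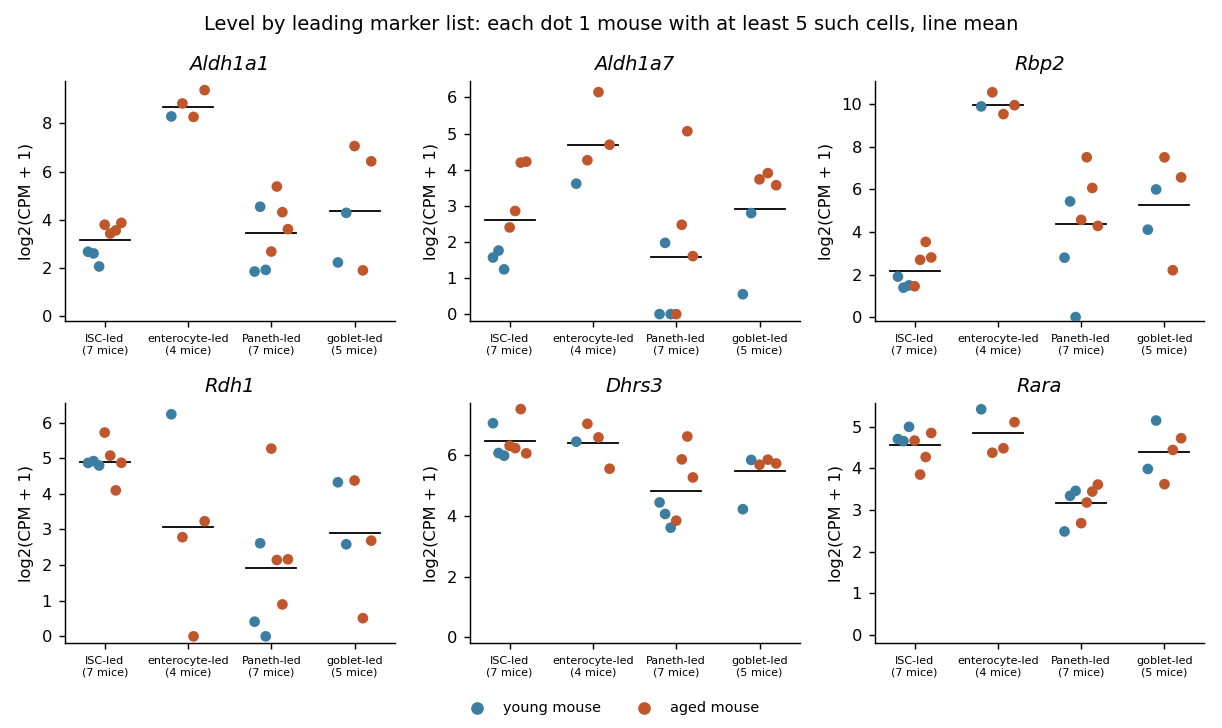
Level, as log2(CPM + 1), of 6 retinoid genes in the cells of each mouse led by ISC, enterocyte, Paneth or goblet markers, for mice with at least 5 such cells. Each dot is 1 mouse, young or aged by color, and the line is the mean. Aldh1a1 and Rbp2 stand highest in enterocyte-led cells (306 to 661 and 745 to 1520 CPM), and Rdh1 lies lower in Paneth-led than in ISC-led cells in 7 of 7 mice.

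Paneth cells, which neighbor ISCs at the crypt base, offered a further comparison, chosen after seeing the data. In 144 Paneth-led against 1539 ISC-led cells of all 7 mice, 3 of 8 members passed edgeR's test, against a background of 5% of 20171 genes higher and 4.32% lower. Rdh1 was lower in Paneth-led cells in 7 of 7 mice, with 7.26 ± 13.5 against 30.5 ± 10.7 CPM (SD, n = 7) and a difference of -2.33 ± 0.50 (log2, SE; adjusted p = 0.00662 in edgeR). In 6 of the mice Paneth-led cells had at most 5.12 CPM, and in aged mouse 1 they had 37.6 CPM. Rbp2 was higher by 3.72 ± 0.57 (log2, SE; adjusted p = 0.000328 in edgeR) and in 6 of 7 mice. Few cells carried its level, since a read was found in a mean of 25.2% of Paneth-led and 21.2% of ISC-led cells, and in young mouse 2 all 232 reads came from 5% of 20 Paneth-led cells. Aldh1a1 passed narrowly at 1.32 ± 0.40 (log2, SE; adjusted p = 0.0473 in edgeR), but its CPM was higher in only 3 of 7 mice. It did not pass in 7 of 12 alternatives, over which the adjusted p ran from 0.00389 in DESeq2 to 0.146 in edgeR without young mouse 2. Dhrs3, at 36.1 ± 31.5 against 94.4 ± 45.5 CPM, and Rara, at 8.35 ± 2.47 against 23.5 ± 5.87 CPM (SD), were lower in CPM in 7 of 7 mice but did not pass (-0.73 ± 0.24 and -0.56 ± 0.25, log2, SE). Lower CPM in every mouse was common, at 30 of the 63 members and listed genes fitted, so it does not set these genes apart. Aldh1a7 differed by -0.42 ± 0.65 and Rbp7 by -0.53 ± 0.59.

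The rest of the pathway was read from 53 genes in 6 lists ordered by role, with 14 further aldehyde dehydrogenases beside them. Between young and aged mice 56 of these 67 genes were fitted, and 0 passed edgeR's test, as did 0 of all 20957 genes (0%). At an unadjusted p under 0.05 in edgeR there were 1098 of the 20957 genes, 3 of them among the 56. The share among the 56 was close to that over all genes, so nothing is read from this count. DESeq2 called 205 of 24845 genes (0.825%), of which Aldh1l1 was the only one of the 67. Aldh1l1, a folate enzyme of the aldehyde dehydrogenase family, was at 20.0 to 22.4 CPM in young and 28.1 to 40.5 CPM in aged mice, a difference of 0.72 ± 0.18 (log2, SE; adjusted p = 0.486 in edgeR). The others at an unadjusted p under 0.05 were the retinol dehydrogenase Sdr16c5, at 4.59 to 6.24 CPM in young and 1.08 to 4.14 in aged mice, and the retinol saturase Retsat, at 37.8 to 44.5 and 46.8 to 54.7 CPM.

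By role, the differences with age ranged in the uptake list from 1.26 ± 0.67 for the fatty acid and carotenoid transporter Cd36 to -0.45 ± 0.22 for Stra6l (log2, SE). Among the carriers and esterifying enzymes the smallest was 0.21 ± 0.18 for Dgat1, and among 20 fitted oxidoreductases they ranged from 1.31 ± 0.76 for Rdh19 to -1.19 ± 0.45 for Sdr16c5. Receptors and corepressors lay between 0.50 ± 0.64 for Rarb and -0.23 ± 0.69 for Rarg. Of the genes known to respond to retinoic acid, the highest was Rarres2 at 0.46 ± 0.45 and the lowest the transglutaminase Tgm2 at -0.22 ± 0.16. Other aldehyde dehydrogenases lay between Aldh1l1 and Aldh7a1 at -0.37 ± 0.21. Of the Cyp26 enzymes that break down retinoic acid, 0 of 3 had enough reads to be fitted. The median difference over the 56 genes was 0.19, against 0.01 over all genes. Aldh9a1, Rdh16, Dhrs4 and Stra6l were also picked by the study on these cells, so their values are not independent of it.

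More genes of these lists passed the test between the classes. Of 55 genes fitted in enterocyte-led against ISC-led cells, 16 were higher and 7 lower in edgeR, against the background of 9.33% and 9.39% of genes. In the uptake list Cd36 was higher by 6.47 ± 0.48 and the carotenoid-cleaving Bco2 by 2.59 ± 0.24, and Stra6l was lower by 1.23 on the log2 scale. Among carriers and esterifying enzymes Dgat1, which can esterify retinol, was higher by 2.81 ± 0.25 (815 ± 146 against 147 ± 11.4 CPM, SD, n = 4 mice). The plasma retinol carrier Rbp4 had 755 reads in ISC-led and 0 in enterocyte-led cells, 9.05-fold lower against the same floor. That figure is likewise no bound, since reads are not independent. Ttr, the plasma partner of Rbp4, was lower at -1.35 ± 0.27. The oxidoreductases had 6 genes higher and 0 lower of 19 fitted. They were Dhrs9 (8.12 ± 1.09), Adh4 (8.00 ± 0.59), Rdh7 (3.32 ± 0.39), Rdh9 (2.93 ± 0.54), Adh1 (1.89 ± 0.24) and Retsat (1.74 ± 0.25, all log2, SE). Dhrs9 rested on 8 reads in ISC-led and 43 in enterocyte-led cells, whereas Adh1 had 313 and 894 CPM.

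Among the receptors Rxra, the partner of the retinoic acid receptors, was higher by 1.05 ± 0.33 and 6 others did not pass. In the responsive list Gprc5a was higher by 2.42 ± 0.69, and the intestinal homeobox gene Cdx1 and Tgm2 were lower, at -0.68 ± 0.22 and -0.71 ± 0.24 (adjusted p = 0.0383 and 0.0447 in edgeR). Neither passed in DESeq2, without aged mouse 2 or without aged mouse 4, and Tgm2 did not pass without young mouse 3. Of the other aldehyde dehydrogenases Aldh4a1 (4.19 ± 0.84), Aldh3b1 (2.82 ± 0.56), Aldh1l1 (2.08 ± 0.25), Aldh9a1 (1.61 ± 0.23) and Aldh3a2 (0.94 ± 0.22) were higher. Aldh1b1 (-0.98 ± 0.25) and Aldh7a1 (-1.44 ± 0.44) were lower.

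**Figure D4:**
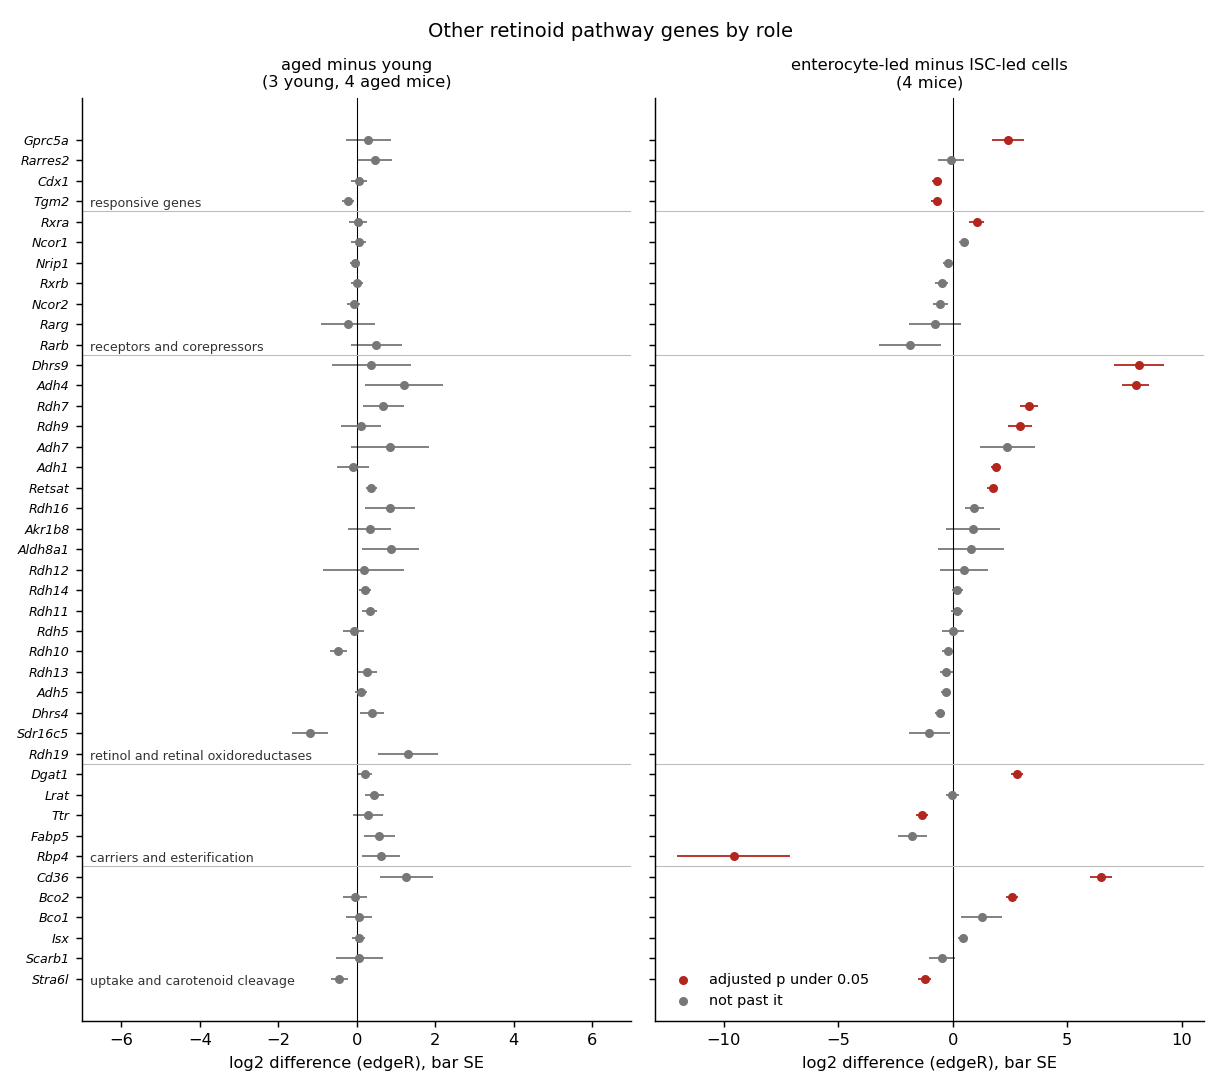
Log2 differences with SE from edgeR for other retinoid pathway genes, grouped by role, between aged and young mice (left) and between enterocyte-led and ISC-led cells of 4 mice (right). Red points passed an adjusted p of 0.05. None is red on the left, where Rdh19 at 1.31 and Sdr16c5 at -1.19 are the extremes, and 16 are red on the right, with Rbp4, at 0 reads in enterocyte-led cells, fitted far to the left.

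Paneth-led cells differed from ISC-led cells in 11 of 55 genes in edgeR, 4 higher and 7 lower, against 5% and 4.32% of all genes, so that the number higher was close to the background. Cd36 (2.78 ± 0.81), Dhrs9 (4.60 ± 1.33), Aldh4a1 (3.08 ± 0.60) and the mitochondrial folate enzyme Aldh1l2 (4.20 ± 0.65) were higher (log2, SE). Lower were Isx, the transcription factor that restrains carotenoid uptake in the intestine, at -0.88 ± 0.18, and Dhrs4, Adh5, Tgm2, Aldh1b1, Aldh2 and Aldh16a1, at -0.63 to -0.85. Cd36, Dhrs9 and Tgm2 passed narrowly (adjusted p = 0.0401, 0.0412 and 0.0445 in edgeR), and Dhrs9 had few reads in ISC-led cells, as given above for 4 mice.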

How the data were processed

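The authors sorted Lgr5-high cells into plates and made Smart-seq2 libraries, which were sequenced as single-end reads with 384 cells to a lane. The deposited values are raw read counts per gene and cell, made by the authors with HISAT2 and HTSeq on GRCm38 according to the submitters' processing notes, without normalization. For the annotation and strand setting of the counting, nothing is stated in the labels or methods read here. Symbols and coordinates were taken from GENCODE M21, with 55230 of 55471 identifiers matched, and promoters from RefSeq on GRCm38.p6. The number of columns without a sample was 0.

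Counts of cells with at least 1000 detected genes (49447464 to 134408884 reads per mouse) were summed per mouse, which was the replicate, or per mouse and class. Nothing in the labels ties mice to litters, so p values measure the spread between these mice only. Genes were fitted with edgeR 4.0.16 in R 4.3.3 (quasi-likelihood test, TMM scaling, filterByExpr, threshold 0.05 after Benjamini-Hochberg adjustment over all genes). The class fits had the mouse as a block. DESeq2 1.42.0 was an alternative. Python 3.11.15, numpy 2.4.6, scipy 1.17.1 and pandas 2.3.3 were used for other values. The alternatives were DESeq2, no filter on low counts, other choices of cells (all, at least 2500 detected genes, ISC-led only, thinned to 100000 reads, weighted equally, a class lead of at least 0.5), the replicate number or the lane as a block, and each mouse left out. The Paneth comparison and its alternatives were chosen after seeing the data. The steps were tested on simulated data. Doublets were not called.

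The 10 genes and the lists were chosen with earlier results of these data known. The genes named are these 10, every listed gene past the threshold in a fit, the extremes of each list, and the 10 genes most correlated with Aldh1a1 and with Aldh1a7. Some genes that this rule covers are not reported here. The genes at an unadjusted p under 0.05 and the first genes within ISC-led cells were named after their values were seen.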

Additional observations from a re-analysis of the deposited data

Results flagged for a closer look

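Of 32 sets of 4 values checked, 1 for each member and measure over the aged mice, 5 had a mouse far from the others. Dhrs3 was at 163.0 CPM in aged mouse 3 over all cells and at 182.3 CPM in its ISC-led cells, above the other aged mice in both. Dhrs3 had a read in 75.66% of all cells and in 78.57% of ISC-led cells of aged mouse 1, below the other aged mice. Aldh1a1 had a read in 33.93% of the ISC-led cells of aged mouse 1, the lowest of the aged mice and above the young mice. With this many sets some flags come by chance, and the measures of a gene share cells, so the flags are not independent.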

How the results depend on the processing

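With edgeR, 0 other pathway genes passed between young and aged mice, also with each mouse left out (range 0 to 0) and with the replicate block (0), whereas DESeq2 called 1. The same-numbered mice showed correlated deviations of -0.02, 0.11 and -0.11, so the numbers were not taken to pair the mice, although aged mouse 2 shared a lane with part of young mouse 2. The other mice that shared a lane showed 0.14 (young 1 and aged 3) and 0.06 (young 2 and aged 1). Young mouse 3 and aged mouse 4, each alone in a lane, showed 0.20, and all remaining pairs were negative. The part of the lane in these values was not tested. The replicate block changed the differences of Aldh1a1 to 1.48 and of Aldh1a7 to 2.07 (log2). Over 16 alternatives Aldh1a1 ran from 1.43 in ISC-led cells to 2.17 and Aldh1a7 from 1.88 with the lane as a block to 2.89, both higher in aged mice in all 16. The lane fit counts the lanes of young mouse 2 as separate samples. Directions turned for Aldh1a3, -1.16 with the lane as a block and 0.49 in ISC-led cells, and for Dhrs3 and Rdh1 as given above. Over all genes the age test called 0 in edgeR, 205 in DESeq2, 22 without the filter, 18 with equal weights, 15 with thinned reads, 8 without aged mouse 1, 2 with the replicate block and 1 with the lane block.

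In enterocyte-led against ISC-led cells, 3 to 5 members were called with a mouse left out (5 without aged mouse 3) and 14 to 26 other genes against 23 (14 without aged mouse 4). Over all genes 3617 were called, and 1947 without aged mouse 4. In Paneth-led cells the ranges were 2 to 3 members and 7 to 10 other genes against 11 (7 without aged mouse 4), and over all genes 1879 were called, 1088 without aged mouse 4. DESeq2 moved the median of all genes from -0.28 to 0.45 in enterocyte-led and from -0.19 to 0.53 in Paneth-led cells (log2), and the split of Paneth calls from 1008 higher and 871 lower to 1845 and 864, with every fitted member keeping its direction. With 1 to 33 enterocyte-led cells in a mouse, depth and cell number limit these values, and reads shared by near copies limit Aldh1a1, Aldh1a7 and Rdh1. The causes of these changes were not tested.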

Other observations

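Goblet-led cells, those in which mucus genes such as Muc2 led, numbered at least 5 in 5 mice (53 cells). Aldh1a1 was at 48.4 ± 57.6 CPM there (SD, n = 5 mice, 2.75 to 132), against 8.71 ± 4.13 CPM in the ISC-led cells of 7 mice. Aldh1a7 was at 8.72 ± 5.50 against 7.32 ± 7.15 CPM and Dhrs3 at 46.7 ± 16.4 against 94.4 ± 45.5 CPM. The mice overlapped with the ISC-led values for Aldh1a1, and no test was made on so few cells.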
